A study of Arabidopsis thaliana with 12 samples.

Results

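The probes described here are those that the platform annotation lists to 1 gene and that lay under a floor in every one of the 12 samples. The floor of a sample is the 5th percentile of its own positive values, which was a deposited intensity of 0.0638 to 0.105. The gene AT3G55800 was left out by the rule, which left 88 probes of 88 genes, 12.7% of the 692 single-gene probes in a table of 3439 probes. The probes were chosen by these same intensities in all 12 samples, so their levels, and any difference between psae2 and the WT in them, are given as a description.

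The array carried total RNA from the thale cress Arabidopsis thaliana, in 6 samples of the mutant psae2, described as without the PSI-E2 subunit of photosystem I, and in 6 wild-type (WT) samples, both in the Columbia 0 ecotype. Allele, tissue, age, growth and array chemistry were not given in the sources used here, so the absence of a signal could not be set against a tissue. The table held 0 probes listed to PSAE2, and the labels were not checked against that transcript. No source says that samples of a group came from separate plants, so p-values measure only the spread between these samples, which may be technical. Column sums were 3217 to 3610 in psae2 and 2972 to 3552 in the WT, and precision is limited by the number of arrays. The sums lay close together within samples 1 and 2, 3 and 4, and 5 and 6 of a group. In psae2 they were 3610 and 3599, 3343 and 3374, and 3217 and 3253. In the WT they were 3552 and 3537, 3178 and 3209, and 2972 and 3001. What these pairs mark was not given. Samples of a pair may be repeats of the same material, which was not tested.

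A probe without signal has several known readings. A gene may not be transcribed in the cells sampled, or its transcript may be too rare to be seen. A probe may also carry too little DNA, or DNA that does not match its transcript, so that even an abundant RNA gives no signal. From the values of 1 probe these cannot be told apart. A second probe of the same gene, or a property of the probe other than its gene, can be set beside them, and both are given below.

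The signal was usually absent altogether. Of the 88 probes, 59 (67.0%) were listed at exactly 0 in all 12 samples, and 29 had a value above 0 in at least 1 sample. Of these 29, 14 were above 0 in 1 sample only, 7 in 2 samples and 2 in 3 samples. In all, 82 of the 1056 values of the 88 probes (7.77%) were above 0. Of all 3439 probes, 267 were at 0 in all samples.

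Most single-gene probes were either never or always under the floor. Of the 692, 527 (76.2%) were at or above the floor in every sample and 89 (12.9%), AT3G55800 included, were under it in every sample. The other 76 were under the floor in 1 to 11 samples, and 12 of these in 10 or 11 samples. The share under the floor in all samples was near the same in probes that list several genes, 106 of 870 (12.2%), and in probes with no listed gene, 234 of 1877 (12.5%). The 3 shares lay within 1 percentage point of each other.

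**Figure D1:**
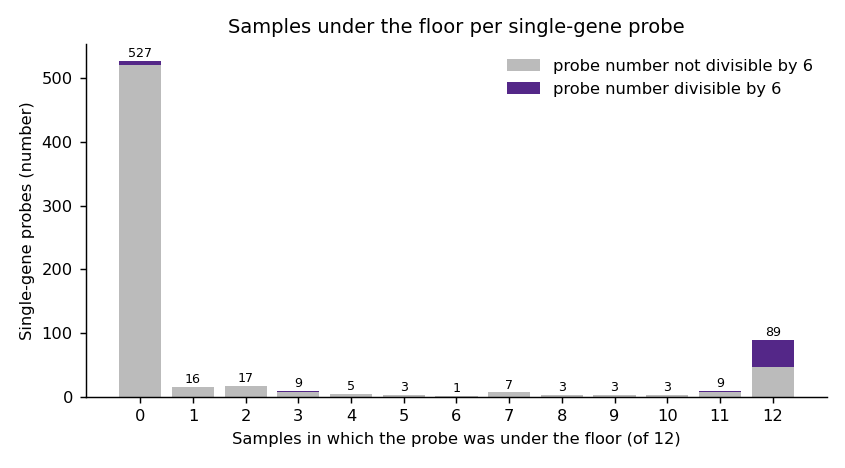
Number of samples (of 12) in which a single-gene probe lay under the floor (x axis) against the number of single-gene probes (y axis), with probe numbers divisible by 6 in purple and others in grey. The 527 probes never under the floor and the 89 always under it stand at the ends, and 42 of the 89 have a number divisible by 6.

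Probes under the floor were unevenly spread over the probe numbers, which identify the rows of the table and run from 1 to 4607. The sources used here do not give what the number stands for, such as a place on the array. Of the 261 probes with a number divisible by 6, 216 (82.8%) were under the floor in all 12 samples. Of the 3178 probes with any other number, 213 (6.7%) were. Among the 88 probes described here, 42 (47.7%) had a number divisible by 6, although only 51 of the 692 single-gene probes had such a number. Numbers divisible by 6 were also fewer in the table, 261 against 593 to 658 in each of the other 5 remainder classes. The number 6 was picked after 8 divisors between 2 and 24 had been looked at, so the pattern is a description.

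The same split was seen in probes of every annotation. It held for 42 of 51 single-gene probes with a number divisible by 6 (82.4%), for 53 of 68 several-gene probes (77.9%) and for 121 of 142 probes with no listed gene (85.2%). With other numbers the shares were 7.33% of single-gene probes, 6.61% of several-gene probes and 6.51% of probes with no listed gene. These classes are not independent of each other: they share the 12 samples, the array and the floors, and the divisor was picked over all of them together.

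**Figure D2:**
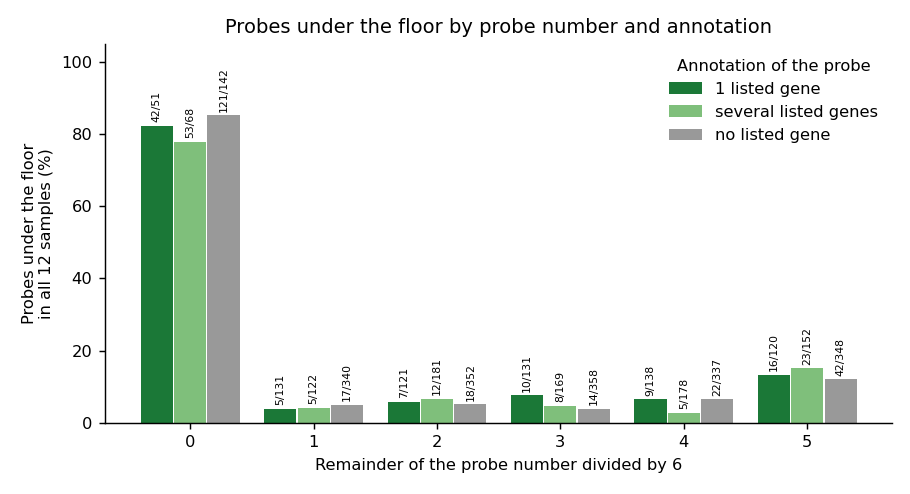
Percent of probes under the floor in all 12 samples (y axis) by the remainder of the probe number divided by 6 (x axis), for probes with 1 listed gene, several listed genes and no listed gene, with counts over the bars. At remainder 0 the bars stand at 82.4%, 77.9% and 85.2%, and at remainders 1 to 4 none is above 7.63%.

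The split changed along the probe numbers, which were also read in windows of 96. Of the 48 windows, 31 held a number divisible by 6. In the stretch 2305 to 2880, 48 such probes were present and 15 (31.2%) were under the floor in all samples. Outside that stretch 201 of 213 (94.4%) were, and in 18 of 26 windows all of them were. In the stretch 2113 to 2304 the table held 0 probes with a number divisible by 6. All 22 probes there whose number leaves a remainder of 5 were under the floor in all samples, against 59 of 598 (9.87%) with remainder 5 elsewhere. The share elsewhere was uneven, with 6 of 10 in the window 1921 to 2016 and 5 of 12 in the window 1441 to 1536. These stretches were picked after their values were seen. Probes with remainders 1 to 4 were under the floor at 0% to 13.7% in every window.

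**Figure D3:**
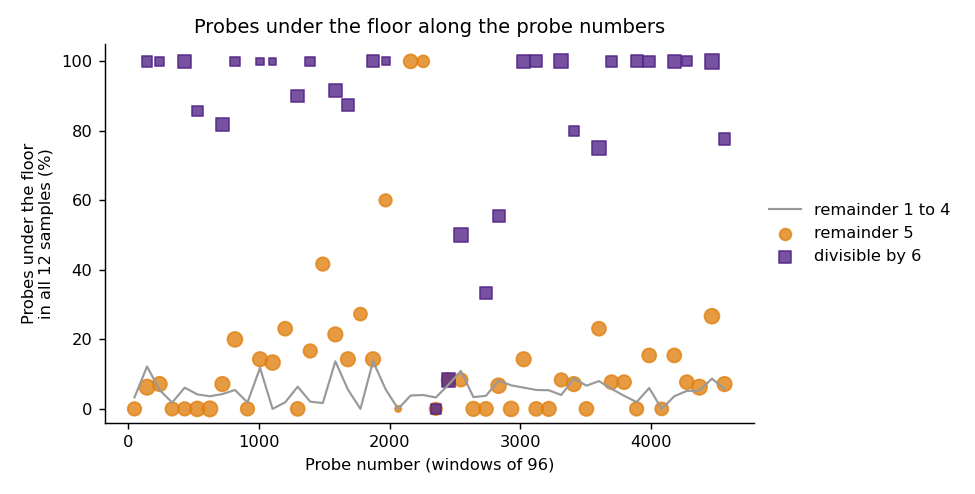
Percent of probes under the floor in all 12 samples (y axis) in windows of 96 probe numbers (x axis), with purple squares for numbers divisible by 6, orange circles for remainder 5 (marker area grows with the number of probes) and a grey line for remainders 1 to 4. Squares lie at 75.0% or above outside 2305 to 2880, and both orange points of the stretch 2113 to 2304 are at 100%.

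The 88 probes therefore divide by number into 42 divisible by 6, 5 with remainder 5 in that stretch, and 41 others. The 5 were SPPA, AT1G76220, AT4G19160, AT5G06930 and AT5G67490. Exact zeros in all 12 samples were more frequent among the 42 with a number divisible by 6, at 33 (78.6%), than among the other 46, at 26 (56.5%). The part of the probe number in the absence of signal was not tested, since probe number and gene cannot be told apart for a gene with 1 probe.

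The 33 genes at 0 throughout with a number divisible by 6 included LrgB and CRR41. On chromosome 1 the others were AT1G12230, AT1G18440, AT1G19490, AT1G29040, AT1G49380, AT1G53050, AT1G64510, AT1G67800 and AT1G68160, and on chromosome 2 AT2G23160, AT2G30100, AT2G38570 and AT2G45990. Chromosome 3 gave AT3G20920, AT3G27180, AT3G29185, AT3G44610, AT3G56330 and AT3G61540, and chromosome 4 gave AT4G05490 alone. Chromosome 5 gave AT5G02830, AT5G11550, AT5G13260, AT5G19150, AT5G22620, AT5G40050, AT5G46560, AT5G48440, AT5G51670, AT5G56850 and AT5G63290.

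The 26 genes at 0 throughout with other numbers included SPPA, CKS and ATSIK. The others on chromosomes 1 to 3 were AT1G24530, AT1G32220, AT1G48570, AT1G75260, AT2G11270, AT2G34450, AT3G19810, AT3G22690, AT3G25680, AT3G54680 and AT3G58830. On chromosome 4 they were AT4G13220, AT4G14050 and AT4G19160. On chromosome 5 they were AT5G01960, AT5G02850, AT5G06930, AT5G44150, AT5G47030, AT5G48270, AT5G55220, AT5G61450 and AT5G67490.

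The genes of the 88 probes were spread over all 5 chromosomes. Chromosome 5 held 28 (31.8%) and chromosome 4 held 6 (6.82%), against 19.1% and 19.0% of the other 601 single-gene probes with a reference gene. Chromosome 1 held 22 (25%, against 25.1%), chromosome 3 held 21 (23.9%, against 18.0%) and chromosome 2 held 11 (12.5%, against 18.8%). In all, 0 pairs of the 88 genes stood next to each other in the order of protein-coding genes. These shares were not tested.

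Another probe bore on 3 of the genes. AT3G25680, AT1G17850 and AT1G24530 were each also listed by 1 probe that lists 3 genes. For AT3G25680 the own probe, number 1600, was at 0 in all 12 samples. Probe 436, which also lists AT3G25680, was lowest at 0.264, with a median of 0.316 and a highest value of 0.381, in psae2, and had 0.289, 0.328 and 0.438 in the WT. For AT1G17850 the own probe, number 3420, was above 0 in 1 sample, at 0.0121, and 0 in the other 11. Probe 2044 had 0.368, 0.428 and 0.509 (lowest, median and highest) in psae2, and 0.326, 0.341 and 0.375 in the WT. For AT1G24530 the own probe, number 4411, was at 0 throughout, and probe 4545 had 0.335, 0.491 and 0.587 in psae2, and 0.304, 0.392 and 0.469 in the WT.

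All 3 several-gene probes were above the floor in all 12 samples, by at least 3.43 times, while the own probe of the gene was under it. The psae2 and WT values of each overlapped. The signal of such a probe may come from any of its 3 listed genes, so it does not show that the gene itself was expressed. Among the other single-gene probes, 64 times a several-gene probe listed the same gene, and 8 of those 64 were under the floor in all samples.

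**Figure D4:**
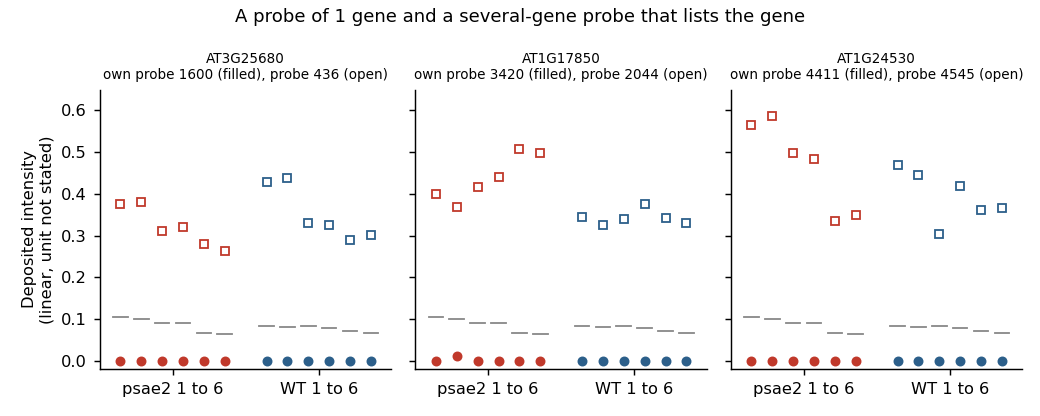
Deposited intensity (y axis, linear, unit not stated) in psae2 samples 1 to 6 and WT samples 1 to 6 (x axis) for 3 genes, with filled circles for the gene's own probe, open squares for the several-gene probe that lists it and grey bars for the floor of each sample. The squares run from 0.264 to 0.587, all above the floor, and the circles lie at 0 except for 1 at 0.0121.

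By name, 12 of the 88 genes (13.6%) have a symbol of their own in the reference table (assembly TAIR10.1), against 79 of 601 (13.1%) of the other single-gene probes. The remaining 76 have a locus code only, and no role is given to them here. The 12 with symbols cover several roles, and 6 of the 12 had a probe number divisible by 6. They are described below by role.

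Among them, 3 serve the chloroplast NADH dehydrogenase-like (NDH) complex, which sits in the thylakoid membrane and passes electrons from ferredoxin back towards plastoquinone, in association with photosystem I. NdhN is a subunit of it, CRR41 is an assembly factor and OTP85 is a pentatricopeptide repeat protein needed for RNA editing of a plastid NDH transcript. NdhN (probe 2514) was lowest and at its median at 0 and highest at 0.00866 in psae2, and had 0, 0.00743 and 0.0235 (lowest, median and highest) in the WT. It was above 0 in 2 of 6 psae2 samples and 3 of 6 WT samples, so the groups overlapped. CRR41 was at 0 in all 12 samples. OTP85 was above 0 in 1 psae2 sample, at 0.000419, and 0 in the other 11 samples. Other genes with names of this group, NdhS, PIFI and CRR21, were at or above the floor in 12 of 12 samples each. So was the repeat protein gene OTP70, which shares the start of its name with OTP85 and is not counted as an NDH gene here. NdhN and CRR41 had numbers divisible by 6, and OTP85, at 4499, did not. NdhN lies in the stretch 2305 to 2880, where 15 of 48 such probes (31.2%) were under the floor in all samples. CRR41, at 3942, lies outside it, where 201 of 213 (94.4%) were.

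Of the other chloroplast genes, LrgB encodes the plastid transporter that exchanges glycolate and glycerate in photorespiration. SPPA encodes a light-induced protease of the thylakoid membrane. Both were at 0 in all 12 samples. UPP encodes the plastid uracil phosphoribosyltransferase, which salvages uracil into UMP. It was above 0 in 2 psae2 samples, at no more than 0.00791, and at 0 in all 6 WT samples. LrgB (probe 198) and UPP (probe 4146) had numbers divisible by 6, and SPPA (probe 2213) was among the 22 probes with remainder 5 described above.

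SAP (STERILE APETALA), a regulator of flower and ovule development, and DME (DEMETER), a DNA glycosylase that removes methylated cytosine and acts in gene imprinting in the seed, are known for roles in reproductive organs. SAP was at 0 in 4 of 6 psae2 samples, with 0.00673 and 0.0552 in the other two, and at 0 in all 6 WT samples. DME was above 0 in 1 psae2 sample and 1 WT sample, at no more than 0.0053. AT4G37230, the 1 gene that the name classes described below placed under pollen and flower, was at or above the floor in 12 of 12 samples. It has no symbol of its own, and no role in these organs is given to it here. In bulk samples such as these, fewer cells of a type and less RNA per cell cannot be told apart. The probe number of SAP (1632) was divisible by 6, and that of DME (1919) was not.

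The rest of the named genes were DRT100, CKS, TRM31 and ATSIK. DRT100 is named for tolerance of DNA damage, and CKS activates the sugar KDO, a component of the pectin rhamnogalacturonan II. TRM31 belongs to a family named for a motif that recruits TON1. CKS and ATSIK were at 0 in all 12 samples, TRM31 was above 0 in 1 psae2 sample, at 0.00226, and DRT100 in 1 psae2 and 1 WT sample, at no more than 0.020. DRT101, with a name of the same series as DRT100, was at or above the floor in 12 of 12 samples.

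Classes of gene names were used to see whether any function stood out, with 20 classes of symbols for processes of the plastid and cell. They placed 35 single-gene probes in 15 classes by the start of the symbol or of a synonym alone. A gene could fall in more than 1 class, as NdhS and PRK did. Of these 35, 5 were among the genes under the floor, in 4 classes, beside 88 of all 692 single-gene probes (12.7%). Photosystem and antenna names (0 of 5) and transcription factor names (0 of 8, which counts PIFI by its first letters) held none of them. Those 8 included the MADS-box genes AGL103, AGL26 and AGL54, and all 8 were at or above the floor in every sample. Beside the share of 12.7%, a count of 0 in 5 or in 8 genes sets neither class apart. The other classes held 1 to 5 named genes each. All 15 classes were too small to describe a function as absent or present.

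The few probes with a repeated weak signal were led by AT2G42490, AT2G39000, AT3G56010 and AT4G01810, all with numbers not divisible by 6. AT2G42490 (probe 3022) was above 0 in all 12 samples. It had 0.0493, 0.0709 and 0.0945 (lowest, median and highest) in psae2, and 0.0384, 0.0491 and 0.0615 in the WT. The floor is set per sample, and this probe reached 98.95% of it in the sample where it came nearest. Its groups overlapped, and it was the only one of the 88 with a positive value in every sample.

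AT2G39000 (probe 4305) had 0, 0.0177 and 0.0409 in psae2, and 0.00810, 0.0373 and 0.0501 in the WT. It was at 0 in psae2 samples 5 and 6 and above 0 in the other 10 samples, and the groups overlapped. AT3G56010 (probe 766) had 0.00372, 0.0221 and 0.0652 in psae2, and 0, 0.00863 and 0.0187 in the WT. Its 2 highest values were those of psae2 samples 5 and 6, the samples in which AT2G39000 was at 0. AT4G01810 (probe 3256) was above 0 in all 6 psae2 samples, at 0.00358, 0.0245 and 0.0534, and in 1 of 6 WT samples, sample 4, at 0.0473. Without that sample, picked after its value was seen, the groups would not overlap. The adjusted p in the limma comparison described below was then 0.1095.

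The next highest means were those of AT3G47080, NdhN, SAP, AT3G32940, AT2G25830 and AT1G66090. AT3G47080 was highest at 0.0856 in psae2 and at 0.00382 in the WT, and was above 0 in psae2 samples 1, 2 and 3 and in WT sample 6. AT2G25830 was highest at 0.0264 in psae2 and 0.00458 in the WT. AT3G32940 had a single positive value, 0.0360 in psae2, and AT1G66090 a single one, 0.0344 in the WT. The 13 loci not described elsewhere had a positive value in 1 to 3 samples each, with highest values of 0.00343 to 0.0235. They were AT1G50750, AT1G72640, AT1G76220, AT2G36560, AT3G01360, AT3G09850, AT3G56500, AT3G56810, AT4G33760, AT5G02050, AT5G23540, AT5G44520 and AT5G59250.

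**Figure D5:**
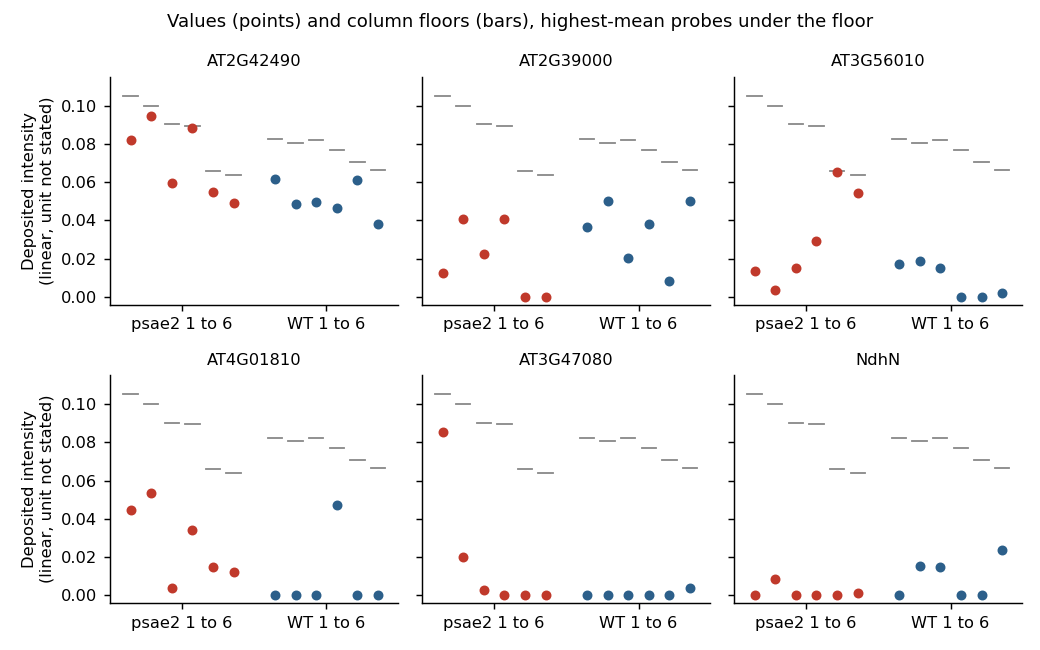
Deposited intensity (y axis, linear, unit not stated) in psae2 samples 1 to 6 and WT samples 1 to 6 (x axis) for the 6 probes under the floor with the highest means, with points for values and grey bars for the floor of each sample. All points lie under their bars. AT2G42490 is above 0 throughout, and AT4G01810 is above 0 in 6 psae2 samples and 1 WT sample.

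The mutant and the WT were compared over all 3439 probes with limma on log2(intensity + 0.0814), quantile normalized, with the offset in place of a floor so that small values kept their differences. Of all probes 20.3% passed at an adjusted p under 0.05, and of the 88 probes 1 did, AT2G39000. With samples 1 and 2, 3 and 4, and 5 and 6 of a group averaged, 2.33% of all probes passed. The 59 probes at 0 throughout had a difference of 0 by construction, so at most 29 could pass. Since the 88 were chosen for low values in the same samples, this count is a description. AT2G39000 averaged -3.43 ± 0.18 in psae2 and -3.01 ± 0.20 in the WT on that log2 scale (SD, n = 6 each), with all 12 values under the floor. The difference of -0.42 depends on the offset: it was -0.17 with an offset 3 times as large and -0.87 with an offset 3 times smaller. With the values as deposited 25.1% of all probes and 0 of the 88 passed. The 1 of the 88 with an unadjusted p under 0.05 in limma there was AT2G42490, with a difference of 0.2016. AT2G39000 had an unadjusted p of 0.1741 in limma there. It did not pass either with samples 1 and 2, 3 and 4, and 5 and 6 of a group averaged. No fall of this transcript is drawn from these values.

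Positive values among the 88 probes were counted per sample. There were 5 to 11 probes above 0 in a psae2 sample (median 8) and 5 to 7 in a WT sample (median 5.5), and the groups overlapped. In all, 48 of 528 values were above 0 in psae2 (9.09%) and 34 of 528 in the WT (6.44%). Of the 29 probes with any positive value, 12 had one in psae2 only, 6 in the WT only and 11 in both. Zeros over the whole table moved the same way, with 408 to 441 per sample in psae2 and 448 to 472 in the WT, and their part in these counts was not tested. No p-value is given for these sums over chosen probes.

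Just outside the threshold lay 9 single-gene probes that were under the floor in 11 of 12 samples. The 5 of them with the lowest value in the remaining sample were AT5G46420 (0.0874 in psae2 sample 6), AT5G25510 (0.0908 in psae2 sample 3), AT3G17950 (0.117 in psae2 sample 2), AT4G17260 (0.1175 in psae2 sample 1) and AT1G62760 (0.1225 in psae2 sample 4). Just inside, AT2G42490 and AT3G56010 reached 98.95% and 98.79% of the floor of a sample. The edge of the set is therefore gradual for these dim probes, whereas 59 of the 88 would lie under any floor above 0.

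The 9 single-gene probes with a number divisible by 6 that were not under the floor everywhere lay mostly in the stretch where that split was weak. Of these, 7 were numbered between 2305 and 2880. AT1G12800 (probe 2472) had 2.30, 2.91 and 3.91 (lowest, median and highest) in psae2, and 1.53, 2.32 and 2.83 in the WT. AT1G49850 (probe 2376) had 0.286, 0.678 and 1.225 in psae2, and 0.220, 0.685 and 1.01 in the WT. AT3G23940, AT3G49740, AT3G50130 and AT5G63390 were also above the floor in all samples, and AT4G27390 in 9 of 12. The 2 outside that stretch, AT3G01060 and AT4G14330, were above the floor in 1 sample each and at 0 in the other 11.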

How the data were processed

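The deposited table gives 1 intensity value per probe and sample, on a linear scale from 0 to 100. How the authors corrected the background and scaled these deposited intensities was not given in the sources used here. All columns belonged to a sample, and 0 pairs of columns were identical. The platform annotation paired probes with genes, and 690 of the 692 single-gene probes matched a gene of the RefSeq table (assembly TAIR10.1), used for names and gene order only.

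The floor, counts and figures were computed in Python 3.11.15 (numpy 2.4.6, pandas 2.3.3, matplotlib 3.10.9). The comparison of psae2 with the WT used limma 3.58.1 in R 4.3.3 (lmFit, eBayes) on log2(intensity + 0.0814), the median floor, after quantile normalization, over all 12 samples without covariates. P-values were adjusted by Benjamini and Hochberg over all 3439 probes at a threshold of 0.05. The limma fit was tested on simulated data with independent samples, without the probes at 0 throughout and without the normalization. That test does not cover paired samples.

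The members and the name classes were chosen with earlier results of these data known. Named genes were those with a symbol, those with another probe, up to 3 per name class, the 10 highest means, any that passed, and the 5 nearest the threshold outside it. Other loci were listed to account for every probe, and the other genes named for comparison were chosen after their values were seen. Loci with a code only were given no role. Alternatives varied the floor, offset, normalization and samples.

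Samples with the same number in psae2 and the WT deviated together from their group means across probes, with correlations of 0.365 to 0.551 in all 6 cases, and 12 of 12 samples correlated best with their own number in the other group. The numbers come from the titles, which do not say what they mark. The main comparison did not pair psae2 and WT samples by number. They were paired only in the alternative where the sample number entered as a replicate block.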

Additional observations from a re-analysis of the deposited data

Results flagged for a closer look

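In 27 sets of 6 samples of 1 group (the 10 probes with the highest means, the 3 several-gene probes and, over the 88 probes, the number above 0 and the sum per sample, where values differed), 10 had 1 sample set apart from the other 5. Chance alone gives about 1 in 20, but sets with mostly zeros are set apart whenever 1 value is positive, and in 5 of the 10 the other 5 samples were all at 0. Those 5 single values were AT4G01810 at 0.0473 in WT sample 4, AT3G47080 at 0.00382 in WT sample 6, AT3G32940 at 0.0360 in psae2 sample 5, AT2G25830 at 0.00458 in WT sample 1 and AT1G66090 at 0.0344 in WT sample 6. In the remaining sets AT3G47080 was at 0.0856 in psae2 sample 1 with the others at 0 to 0.0203, and NdhN was at 0.00866 in psae2 sample 2 with the others at 0 to 0.00141. SAP was at 0.0552 in psae2 sample 6, with the other psae2 samples at 0 to 0.00673. AT2G25830 was at 0.0264 in psae2 sample 3, with the others at 0 to 0.00350. Probe 2044, which lists AT1G17850 and other genes, reached 0.375 in WT sample 4, with the remaining WT values at 0.326 to 0.344.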

How the results depend on the processing

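The number of single-gene probes under the floor, 88, was 59 with exact zeros only, 80 and 102 with the 2nd and 10th percentile as the floor, 86 with 1 floor for all columns, 87 with columns divided by their medians first, 93 with numbers averaged in pairs, 89 over the 6 psae2 samples and 106 over the 6 WT samples alone, and 88 to 91 with 1 sample left out. The percent with a number divisible by 6, 47.7%, was 41.5% to 55.9% in these 8 settings and 47.2% to 47.8% with 1 sample left out. The 698 probes that passed over the whole table numbered 983 when the sample number entered as a replicate block, which changed no call of the 88, 80 (2.33% of all probes) with numbers averaged in pairs (3 values per group) and 583 to 684 with 1 sample left out. The number of the 88 that passed, 1, was 0 with the values as deposited and 1 in the other settings, a different gene (NdhN) with numbers averaged in pairs; the cause was not tested. AT2G39000 passed in 5 of 7 settings, with a log2 difference of -0.8707 to -0.1681 over all 7. With each array centred on its median it was -0.3685, but there the probes at 0 throughout also had a difference, of -0.1693. With numbers averaged in pairs its adjusted p in limma was 0.1475. With 1 sample left out it passed in 12 of 12 (-0.4935 to -0.3823, adjusted p 0.00775 to 0.0444 in limma). Each of these fits kept the other sample of the pair, so they cannot show whether the call rests on repeats. The log2 difference of AT3G56010, which passed in none, was 0.12. It was 0.0148 without psae2 sample 5, 0.0415 without psae2 sample 6 and 0.2835 as deposited. That of AT4G01810, which passed in none, was 0.13, with 0.25 without WT sample 4. The log2 difference of AT2G42490 was 0.2016 as deposited, 0.0324 after centring arrays on their medians and -0.0525 to 0.0134 with 1 sample left out; it passed in none. Of these 698 calls, 367 were higher and 331 lower in psae2, against 720 and 143 as deposited and 278 and 407 with each array centred. The median log2 difference over all probes was 0.10 as deposited. Values under the floor are dim, and their differences have little support.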

Other observations

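AT4G14330 (probe 3612, divisible by 6) was at 1.083 in psae2 sample 2 and at 0 in the other 11 samples, and AT3G01060 (probe 684) was at 0.159 in psae2 sample 1 and at 0 in the other 11. Both were chosen after their values were seen. Over 6 samples of 1 group, 89 single-gene probes were under the floor in all psae2 samples and 106 in all WT samples. Probes with a number divisible by 6 that were not under the floor everywhere had a median mean intensity of 0.239 over the whole table, against 0.338 to 0.491 in the other 5 remainder classes. That median pools unlike probes: it was 0.313 in the stretch 2305 to 2880 and 0.0163 outside it. The stretch was picked after its values were seen.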
